A study of Mus musculus with 2 samples.

Results

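The 10 genes described here encode secreted or membrane-bound cytokines that stromal cells are known to supply to immune, epithelial and glial neighbours: Il33, Il6, Il11, Lif, Csf1, Tslp, Il15, Il18, Tnfsf13b and Il34. They were chosen by name, and all 10 were listed in both deposited tables, among 17809 genes (wild-type) and 15972 genes (reporter). Single-cell RNA was measured in 1 droplet library of the colon of C57BL/6 mice, in which sorted EpCAM+/CD45- epithelial and EpCAM-/CD45- non-epithelial cells were mixed in equal parts, and in 1 library of GFP+ mesenchymal cells of Pdgfra-H2B-eGFP mice, in which a nuclear GFP is made from the Pdgfra locus, so that the sort selects cells that use this locus. Each library pooled colon cells of 3 female mice aged 8 to 12 weeks, and the labels name no treatment. The reporter cells were sorted on GFP and viability with no CD45 gate, and they were prepared with an older kit (version 2, against version 3 for the wild-type library). Kit, strain and sort therefore cannot be told apart between the libraries, and values of both are set side by side.

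Cytokines of these families work over short distances. IL-33 and IL-18 are IL-1 family members that carry injury and barrier signals to lymphoid and myeloid cells. IL-6, IL-11 and LIF signal through the shared receptor subunit gp130. CSF1 and IL-34 are the ligands of the macrophage receptor CSF1R, and TSLP, IL-15 and BAFF (the product of Tnfsf13b) maintain or activate innate lymphoid cells, T cells, dendritic cells or B cells.

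Cells were clustered without these genes and named from markers. In the wild-type library 7495 cells gave 816 CTFs-like cells (crypt-top fibroblasts), 1137 CBFs1-like and 508 CBFs2-like cells (crypt-bottom fibroblasts), 949 smooth muscle-like, 118 pericyte-like, 590 blood endothelial-like, 45 lymphatic endothelial-like, 79 glia-like, 40 immune-like and 2474 epithelial cells. A further 4 clusters, of 487, 131, 101 and 20 cells, were not named by the markers, and values of named classes leave them out. The 487 cells were led by haemoglobin genes, with a median of 14.5% mitochondrial counts. The 131 cells were led by Pi16, C3 and Dpt, of which Pi16 and C3 are CBFs2 markers. In the 101 cells blood endothelial markers were above 0 in 96.2% of cells on average and pericyte markers in 72.7%. The 4409 reporter cells gave 520 CTFs-like, 1016 CBFs1-like, 853 CBFs2-like, 1095 activated fibroblast-like and 759 inflammatory fibroblast-like cells, with 114 immune-like and 52 epithelial cells beside them. The mean log2 fold of a type's markers over the other fibroblasts of its library had to reach 0.5. It was 0.595 for reporter CBFs1-like and 0.714 for activated fibroblast-like cells, against 1.84 to 3.08 in the other reporter types. Wild-type CBFs1-like cells had 3.35, so the reporter CBFs1-like name is weakly marked. The 10 genes that led the reporter CTFs-like class held 2 of its own markers, Bmp3 and Sox6, and 2 of smooth muscle, Tagln and Acta2. Values are corrected counts, the UMI counts that the authors adjusted to a common depth, and the level of a gene in a class is the mean of that count over its cells. Cells had median totals of 8972 corrected counts in the wild-type library and 3150 in that of the reporter, so levels are compared between classes of 1 library. With 1 library per group no test was possible and no p-value is given. The intervals are exact 95% intervals that cover counting error only, not differences between mice. Those of ratios treat every corrected count as a separate draw. They leave out the spread between cells, and are too narrow where few cells hold many counts.

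Genes of 1 compartment were also above 0 in the other in the wild-type library. Epcam, an epithelial adhesion gene, had a mean of 0.632 in the fibroblasts and was above 0 in 38.2% of them, against means of 17.8 to 30.9 in the 5 epithelial classes. Col1a1, a collagen gene of fibroblasts, had a mean of 0.177 in epithelial cells, which was 0.890% of its level in fibroblasts, and was above 0 in 4.53% of epithelial cells. Col1a1 was above 0 in 97.1% of reporter fibroblasts, and Epcam was above 0 in 0.234% to 0.791% of the cells of the 5 fibroblast classes. Ptprc, the gene of the immune antigen CD45, was above 0 in 0.176% to 0.394% of wild-type CTFs-like, CBFs1-like and CBFs2-like cells, and among reporter cells in 1 CTFs-like cell and none of the other 4 fibroblast classes.

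The genes fell into separate patterns over the classes. Il33 was highest in CBFs2-like cells, Tnfsf13b in CBFs1-like cells and Tslp in CTFs-like cells. Il34 was highest in pericyte-like and glia-like cells and, among fibroblasts, in CTFs-like cells. Csf1 was spread over all 3 fibroblast types and smooth muscle-like cells, Il6 sat in CBFs2-like, pericyte-like and a subset of endothelial cells, and Il18 went against the stromal label of the group with its highest levels in the epithelium. Il15 was broad and low, and Il11 and Lif had means of at most 0.119 in every class and cluster of either library.

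**Figure D1:**
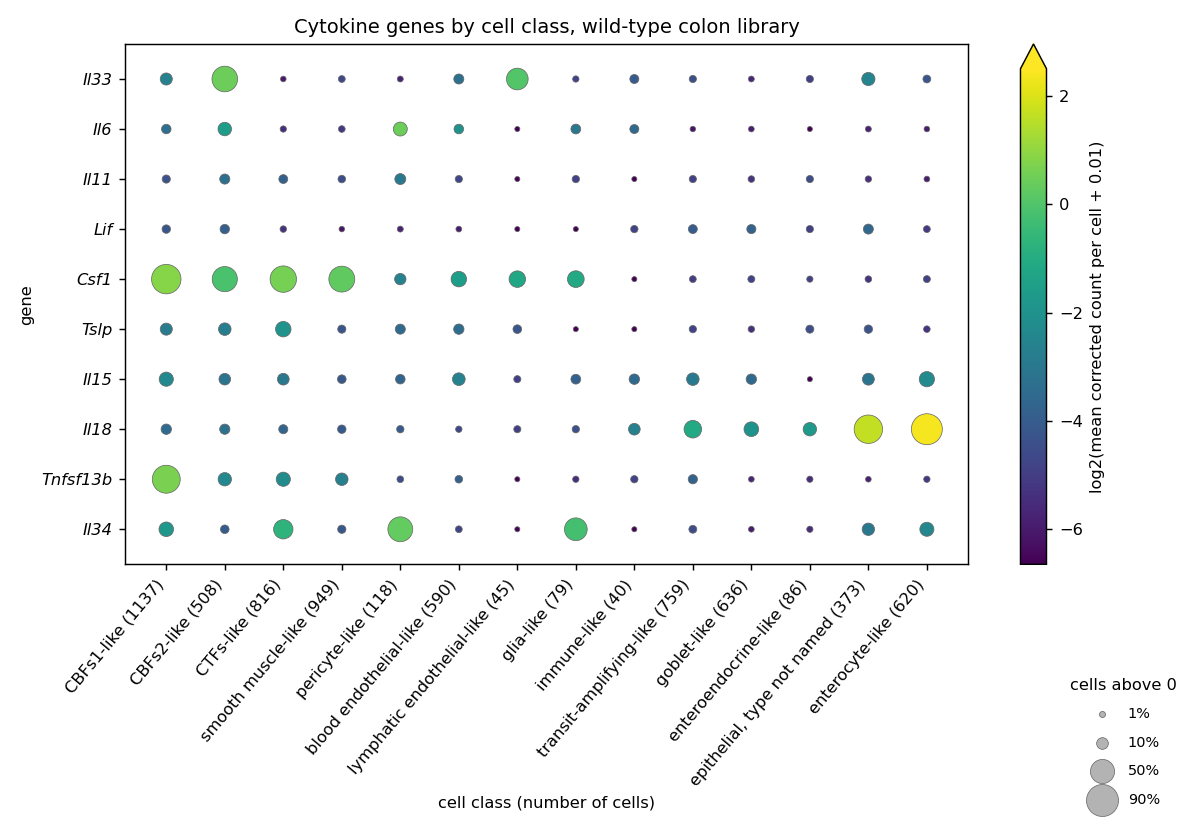
Dot plot of the 10 genes (rows) over 14 named classes of the wild-type library (columns, number of cells in brackets). The colour gives log2 of the mean corrected count per cell plus 0.01 and the area of the dot grows with the share of cells above 0. Il33 stands out in CBFs2-like cells (56.9% of cells), Tnfsf13b in CBFs1-like cells (68.1%) and Il18 in enterocyte-like cells (84.2%).

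Sequence upstream of 3 genes is shown because their levels took different courses: Il6 was high in activated and inflammatory fibroblast-like cells, Csf1 differed by under 2-fold there, and Il33 went with the CBFs2-like type. The 250 bases before the annotated start come from RefSeq on GRCm38.p6, which held entries for 7 of the 10 genes. Capitals mark matches on either strand to an NF-kB motif (GGG, any 2 bases, then TTTCC) or an AP-1 motif (TGANTCA).
Il6 (chr5:30012864-30013113, plus strand): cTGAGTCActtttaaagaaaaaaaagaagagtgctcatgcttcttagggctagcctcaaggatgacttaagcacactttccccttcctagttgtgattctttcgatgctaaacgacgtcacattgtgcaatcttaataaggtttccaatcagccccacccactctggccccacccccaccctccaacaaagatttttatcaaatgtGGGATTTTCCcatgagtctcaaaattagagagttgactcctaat
Csf1 (chr3:107760470-107760719, minus strand): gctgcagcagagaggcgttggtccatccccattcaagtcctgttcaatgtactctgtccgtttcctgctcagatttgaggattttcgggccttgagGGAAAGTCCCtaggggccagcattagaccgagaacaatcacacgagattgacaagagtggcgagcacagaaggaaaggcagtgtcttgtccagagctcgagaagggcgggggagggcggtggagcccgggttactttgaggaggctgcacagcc
Il33 (chr19:29924863-29925112, plus strand): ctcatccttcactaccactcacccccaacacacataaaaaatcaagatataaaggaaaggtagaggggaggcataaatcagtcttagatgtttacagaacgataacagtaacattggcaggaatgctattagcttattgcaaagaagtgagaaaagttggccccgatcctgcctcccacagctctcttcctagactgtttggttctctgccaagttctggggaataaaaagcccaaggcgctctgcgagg
The NF-kB letters were found at -44 in Il6 and, on the opposite strand, at -154 in Csf1, and in 1.41% of all 32851 windows of this length. The AP-1 letters were found at -249 in Il6 and in 6.75% of all windows. They also occurred before Lif, before 1 of 2 starts of Il11 and before 1 of 2 starts of Tnfsf13b. A STAT motif (TTCNNNGAA), held by 7.02% of all windows, matched none of the windows of these genes. A match describes letters in this window and was not tested as a site.

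Il33 lies on chromosome 19 (GRCm38, 29925114 to 29960718, plus strand). Its mean was 1.35 in CBFs2-like, 0.149 in CBFs1-like and 0.00490 in CTFs-like cells of wild-type colon. The same 3 types had means of 0.579, 0.0768 and 0.00385 in the reporter library, so the order of the types was the same in both libraries. The gene was above 0 in 56.9% of wild-type CBFs2-like cells (52.5% to 61.2%), in 10.8% of CBFs1-like cells (9.07% to 12.8%) and in 0.490% of CTFs-like cells (0.134% to 1.25%). With every cell thinned to 2000 counts these shares were 22.0%, 4.05% and 0.123%. Among the other named wild-type classes lymphatic endothelial-like cells came nearest, with a mean of 1.00 and 40.0% of 45 cells above 0 (25.7% to 55.7%), an interval that overlapped that of CBFs2-like cells. Blood endothelial-like cells divided by cluster. The 98 cells led by Selp, Madcam1 and Ackr1, genes of venular endothelium, had a mean of 0.510, and the 492 cells led by Esm1 and Kdr had a mean of 0.0122. In the epithelium Il33 had a mean of 0.166 in the 373 cells led by Krt36 and Fut9, whose type the markers did not name, and of 0.00943 in goblet-like cells.

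Il1rl1, the gene of the IL-33 receptor ST2, was seen in CTFs-like more than in CBFs-like cells of the wild-type library. It had a mean of 0.186 in wild-type CTFs-like cells, where 5.51% of cells were above 0, against a summed corrected count of 2 over all 1645 CBFs-like cells. Immune-like cells had a mean of 0.175. Among reporter cells Il1rl1 had a mean of 0.0115 in CTFs-like cells and 0.0698 in inflammatory fibroblast-like cells, and was at 0 in CBFs1-like cells. Il1rap, the co-receptor of ST2, had wild-type means of 0.150 (CTFs-like), 0.224 (CBFs1-like) and 0.0906 (CBFs2-like).

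Il18 (chromosome 9, 50554827 to 50581840, plus strand) encodes a cytokine that is stored as a precursor and cleaved by inflammasome caspases. Its mean was 5.2 in enterocyte-like cells, 3.15 in the epithelial cells led by Krt36 and Fut9, 0.444 in transit-amplifying-like, 0.291 in enteroendocrine-like and 0.242 in goblet-like cells. The intervals of the share of cells above 0 overlapped between enteroendocrine-like and goblet-like cells and not between the first 3 classes. The enterocyte-like class itself was uneven. In its cluster led by Saa1 and Atp12a the mean was 9.89 and 211 of 213 cells were above 0 (99.1%), whereas in the cluster led by Cyp2c55 and Sptssb the mean was 2.75 with 76.4% of 407 cells above 0. After thinning to 2000 counts these shares were 82.2% and 43.0%. Fibroblasts had a mean of 0.0784 with 6.58% of cells above 0. The summed Il18 count was 7.95% of the Epcam count in the epithelium. CTFs-like (7.72%), smooth muscle-like (7.38%), pericyte-like (5.17%) and blood endothelial-like cells (2.05%) were below that value, and both crypt-bottom types were above it, CBFs1-like at 16.8% and CBFs2-like at 15.6%. These ratios also vary with Epcam, which was above 0 in 29.6% of CBFs1-like, 34.8% of CBFs2-like and 37.2% of smooth muscle-like cells. Its shares were 52.2% in CTFs-like, 68.6% in pericyte-like and 73.9% in blood endothelial-like cells. Reporter cells had means of 0.00938 to 0.0316 in the 5 fibroblast classes and 0.135 in 52 epithelial cells, and of the reporter fibroblasts 2.38% were above 0 for Il18 and 0.542% for Epcam. The part of free epithelial RNA in the Il18 of fibroblasts was not tested.

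**Figure D2:**
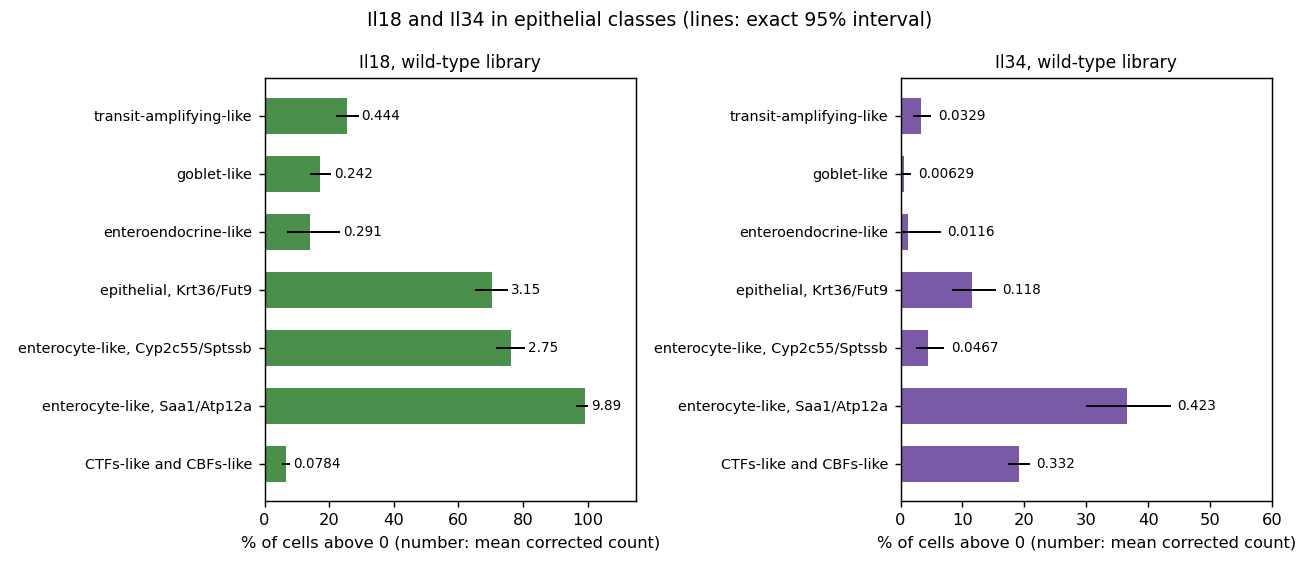
Share of cells above 0 for Il18 (left) and Il34 (right) in epithelial classes of the wild-type library, with all CTFs-like and CBFs-like cells in the bottom bar. Lines give exact 95% intervals and the numbers beside the bars are mean corrected counts. Both genes are highest in the enterocyte-like cluster led by Saa1 and Atp12a, with 99.1% of cells above 0 for Il18 and 36.6% for Il34.

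Il6 (chromosome 5, 30013114 to 30019981, plus strand) was uneven between and within classes. In the wild-type library its mean was 1.36 in pericyte-like cells, 0.321 in CBFs2-like cells and 0.244 in blood endothelial-like cells. CBFs1-like cells followed with 0.0853 and CTFs-like cells with 0.0123. Few cells carried it. Among 118 pericyte-like cells 18 were above 0 (15.3%, 9.30% to 23.0%), and the 11 cells with at least 5 counts held 94.4% of the Il6 of that class. Likewise 11 of the 98 Selp/Ackr1 endothelial cells held 75.4%, and 9 of the 508 CBFs2-like cells held 39.9%. Of the blood endothelial-like cells, the Selp/Ackr1 cluster had a mean of 1.29 and the Esm1/Kdr cluster 0.0366. Epithelial cells had a mean of 0.00566. For lymphatic endothelial-like cells 0 of 45 cells were above 0, which allows a share of up to 6.67%.

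Il6 was higher in part of the reporter fibroblasts. Its mean was 1.60 in inflammatory fibroblast-like cells, 1.19 in activated fibroblast-like cells and 1.01 in CBFs2-like cells, against 0.114 in CBFs1-like and 0.123 in CTFs-like cells. The shares above 0 were 48.6% (45.0% to 52.2%), 41.6% (38.6% to 44.5%), 30.8% (27.7% to 34.1%), 7.19% (5.67% to 8.95%) and 7.31% (5.22% to 9.89%) in the same order. The first 3 classes did not overlap each other or the last 2, which did not differ beyond their intervals. Thinned to 2000 counts per cell the shares were 38.5%, 34.7%, 26.3%, 4.82% and 5.00%. The 114 immune-like cells had a mean of 0.377. They also held Col1a1 in 61.4% of cells.

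The levels of 14 genes that gp130-STAT and NF-kB signalling are known to induce were summed per class. Their summed mean among reporter cells was 35.0 in activated fibroblast-like, 28.0 in inflammatory fibroblast-like, 24.4 in CBFs2-like and 12.3 in CBFs1-like cells. CTFs-like cells went apart, with a summed mean of 27.4 beside an Il6 mean of 0.123. In the wild-type library the sum was 120 in the Selp/Ackr1 endothelial cluster, 97.7 in pericyte-like cells and 54.9 in the Esm1/Kdr endothelial cluster. It was 43.4 for CBFs2-like, 37.5 for CTFs-like and 31.6 for CBFs1-like cells. Glia-like cells had a sum of 82.0 and an Il6 mean of 0.114. The order of the sums was not that of Il6, since the Esm1/Kdr and glia-like cells had higher sums and lower Il6 than CBFs2-like cells. Between activated fibroblast-like and CBFs1-like cells 10 of the 14 genes were at least 2-fold higher (4.1% of 10859 genes compared), among them Nfkbiz (0.598 against 0.0738). Nfkbia (4.52 against 0.831) and Socs3 (3.93 against 0.976), which encode inhibitors and feedback regulators of these pathways, were also among the 10. The activated fibroblast-like class was named from markers of activation, and the genes that led it included Socs3 and Ptgs2 of this list. The count of 10 genes is therefore not independent of how the class was found. The mesenchymal fraction of the tissue had been digested for 1 hour with collagenase D and dispase. Non-epithelial cells of the wild-type library were pooled from this and from the epithelial isolation, which used other reagents. The part of these steps and of the response genes in the Il6 values was not tested.

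**Figure D3:**
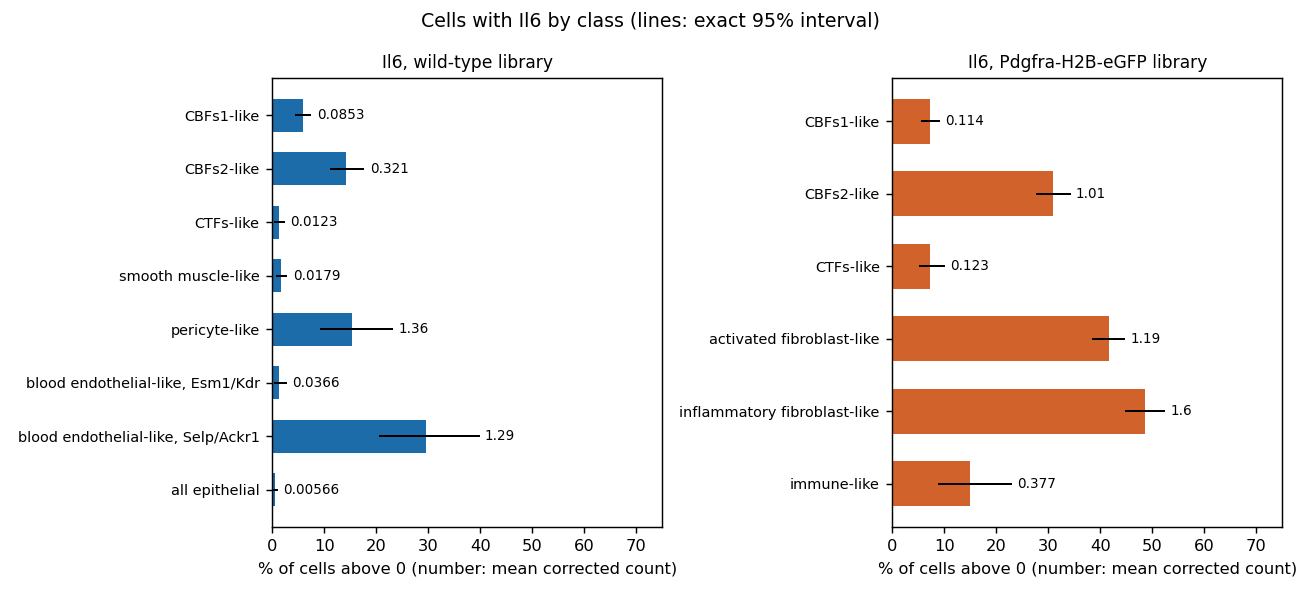
Share of cells with Il6 above 0 by class in the wild-type (left) and reporter library (right). Lines give exact 95% intervals and the numbers beside the bars are mean corrected counts per cell. In the wild-type library the Selp/Ackr1 endothelial cluster has a share of 29.6%, and among reporter cells inflammatory (48.6%) and activated fibroblast-like cells (41.6%) stand above CBFs1-like (7.19%) and CTFs-like cells (7.31%).

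Il11 (chromosome 7, 4772373 to 4782859, minus strand) and Lif (chromosome 11, 4257557 to 4272514, plus strand), the other gp130 cytokines, were low. Among named classes Il11 had its highest means in pericyte-like cells (0.119), CBFs2-like cells (0.0866) and CTFs-like cells (0.0576) of the wild-type library, whose shares overlapped. Reporter means were 0.0481 (CTFs-like), 0.0177 (CBFs1-like) and 0.0141 (CBFs2-like). Lif had means of 0.0571 in CBFs2-like, 0.0440 in CBFs1-like and 0.0147 in CTFs-like wild-type cells, and of 0.0724 in the epithelial cells led by Krt36 and Fut9 and 0.0613 in goblet-like cells. Between epithelium and fibroblasts the log2 ratio of Lif was 0.39, with a counting interval of -0.01 to 0.80 that included 0, and it was -0.16 with thinned cells.

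Receptor genes of this family were seen in most stromal classes. Il6st, the gene of gp130, had means of 1.96 in CBFs2-like, 0.912 in CBFs1-like and 0.897 in CTFs-like wild-type cells and of 0.0788 in the epithelium. In the Selp/Ackr1 endothelial cluster its mean was 6.79 and every cell was above 0. Il11ra1, the receptor of IL-11, was higher in CTFs-like than in CBFs-like cells in both libraries, with means of 3.31 and 1.32 (wild-type) and of 1.81 and 0.732 (reporter). Il6ra had means of 0.692 in CTFs-like, 0.541 in CBFs1-like and 0.478 in CBFs2-like wild-type cells, and Lifr was highest in the Selp/Ackr1 endothelial cluster with a mean of 3.70.

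Csf1 (chromosome 3, 107741048 to 107760469, minus strand) was spread over the stroma. Its means in the wild-type library were 1.79 in CBFs1-like, 1.49 in CTFs-like, 1.18 in smooth muscle-like and 0.915 in CBFs2-like cells, and it was above 0 in 75.9% of the first class (73.3% to 78.4%) and 60.5% of the second (57.1% to 63.9%). Shares were 58.1% in smooth muscle-like cells (54.8% to 61.2%) and 54.7% in CBFs2-like cells (50.3% to 59.1%). The share of CBFs1-like cells stood apart, and those of the other 3 classes overlapped. Pericyte-like cells had a mean of 0.153. In the epithelium the mean was 0.0222, which was 1.47% of the fibroblast level beside the 0.890% of Col1a1. Reporter means were 0.553 in inflammatory fibroblast-like, 0.462 in CTFs-like, 0.371 in CBFs1-like, 0.342 in activated fibroblast-like and 0.283 in CBFs2-like cells.

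Il34 (chromosome 8, 110741829 to 110805924, minus strand), the second CSF1R ligand, was distributed otherwise. Its mean was 1.21 in pericyte-like cells, 0.848 in glia-like, and 0.587 in CTFs-like cells of the wild-type library. CBFs1-like cells had 0.274 and CBFs2-like cells 0.0512. The shares of pericyte-like (53.4%, 44.0% to 62.6%) and glia-like cells (44.3%, 33.1% to 55.9%) overlapped, and so did those of glia-like and CTFs-like cells (31.5%, 28.3% to 34.8%). Reporter cells had means of 0.444 in CTFs-like, 0.188 in inflammatory fibroblast-like, 0.0922 in activated fibroblast-like, 0.0856 in CBFs1-like cells and 0.0176 among CBFs2-like cells. The enterocyte-like cluster led by Saa1 and Atp12a had the highest epithelial level of Il34, with a mean of 0.423 and 36.6% of cells above 0 (30.1% to 43.5%), against 0.0467 and 4.42% in the Cyp2c55/Sptssb cluster. Csf1r had a mean of 1.88 in the 40 wild-type immune-like cells and of 0.404 in the 114 of the reporter library, and no more than 0.00394 in CTFs-like, CBFs1-like and CBFs2-like cells of either library. Ptprz1, which encodes another receptor of IL-34, had a mean of 2.53 in glia-like cells.

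Tnfsf13b (chromosome 8, 10006467 to 10039072, plus strand), which encodes the B cell survival factor BAFF, separated CBFs1-like cells from the other named wild-type classes. Its mean was 1.56 there, 0.202 in CTFs-like, 0.187 in CBFs2-like cells, and smooth muscle-like cells had 0.145. It was above 0 in 68.1% of CBFs1-like cells (65.3% to 70.8%), and the next shares were 15.8% in CTFs-like (13.4% to 18.5%) and 13.8% in CBFs2-like cells (10.9% to 17.1%), which overlapped. Among reporter cells the means were 1.05 in CBFs1-like, 0.989 in inflammatory fibroblast-like, 0.924 in activated fibroblast-like, 0.225 in CTFs-like and 0.111 in CBFs2-like cells. The 3 high classes had shares of 57.3% (54.2% to 60.3%), 59.2% (55.6% to 62.7%) and 53.3% (50.3% to 56.3%), which overlapped. Tnfrsf13c, the gene of the BAFF receptor, was above 0 in 10.0% of the wild-type immune-like cells and at 0 in CTFs-like and CBFs1-like cells of both libraries.

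Tslp, on chromosome 18, encodes a cytokine that acts on dendritic cells and type 2 lymphocytes. It was highest in CTFs-like cells of both libraries, with means of 0.248 and 0.250. CBFs1-like and CBFs2-like cells had means of 0.125 and 0.138 (wild-type) and of 0.156 and 0.144 (reporter). The share above 0 was 19.2% of wild-type CTFs-like cells (16.6% to 22.1%), above those of CBFs2-like (11.8%, 9.14% to 14.9%) and CBFs1-like cells (10.8%, 9.07% to 12.8%), which overlapped. In the epithelium the mean was 0.0226. Crlf2, which encodes the TSLP receptor chain, had means of 0.307 to 0.418 in the 3 wild-type fibroblast types and 1.05 in immune-like cells, and Il7r, the other chain, was at or under 0.00197 in these fibroblasts and at 0.825 in immune-like cells.

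Il15 (chromosome 8, 82331632 to 82403222, minus strand), a survival factor of natural killer and memory T cells, differed least of the 10 genes between epithelium and fibroblasts. Its wild-type means were 0.194 in enterocyte-like, 0.186 in CBFs1-like, 0.156 in blood endothelial-like, 0.119 in transit-amplifying-like, 0.115 in CTFs-like and 0.102 in CBFs2-like cells. The shares of the first 2 classes overlapped (18.7%, 15.7% to 22.0%, and 15.7%, 13.7% to 18%). Reporter cells gave means of 0.161 in inflammatory fibroblast-like, 0.125 in CBFs1-like, 0.0868 in activated fibroblast-like, 0.0680 in CBFs2-like and 0.0673 in CTFs-like cells. Il15ra, whose product presents IL-15 to neighbouring cells, had means of 0.0650 to 0.118 in the 3 wild-type fibroblast types and 0.126 in the epithelium.

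**Figure D4:**
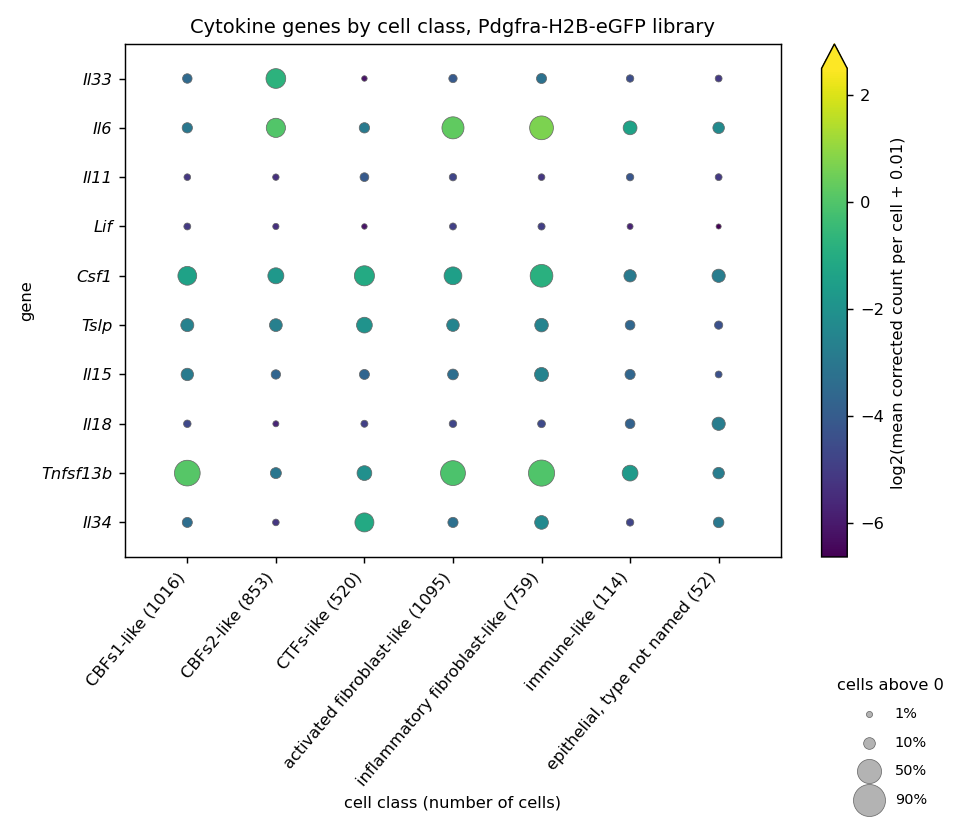
Dot plot of the 10 genes (rows) over the 7 classes of the Pdgfra-H2B-eGFP library (columns, number of cells in brackets), on the same colour and size scales as for the wild-type library. Il6 is high in activated and inflammatory fibroblast-like and in CBFs2-like cells, Il33 in CBFs2-like cells (32.8% of cells) and Il34 in CTFs-like cells (30.2%).

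The comparison of CTFs-like with CBFs-like cells asked which of these signals differ between the fibroblast types named after crypt top and crypt bottom. The position of the cells in these libraries was not measured. Among reporter cells the CBFs-like side held CBFs1-like and CBFs2-like cells, and left out activated and inflammatory fibroblast-like cells. The 10 smooth muscle markers had a summed mean of 19.6 in wild-type CTFs-like cells, against 2.17 (CBFs1-like) and 2.11 (CBFs2-like). Reporter sums of the 9 markers listed there were 11.6, 0.735 and 0.406, and their part in the ratios was not tested. A gene entered a comparison where its summed corrected count over both groups was at least 20, and called where the means differed at least 2-fold. All 10 genes entered every comparison. In the wild-type library 4 of 10 were called lower in CTFs-like cells (11.7% of 13033 genes compared) and 1 higher (6.37% of genes). Il33 was 106-fold lower (log2 ratio -6.73, interval -8.61 to -5.37), from 4 corrected counts in CTFs-like cells, with log2 ratios of -7.70 to -4.92 over the alternatives. Il6 was 12.9-fold lower, Tnfsf13b 5.63-fold lower and Lif 3.27-fold lower, and Il34 was 2.86-fold higher. Among reporter cells the same 4 genes were called lower (10.3% of 11337 genes compared). Il34 (8.14-fold) and Il11 (3.00-fold) were called higher (10% of genes). The reporter ratios of Il33 and Lif rest on 2 corrected counts each in CTFs-like cells, with log2 intervals of -9.36 to -4.45 and -5.26 to -0.18, and with a pseudocount of 0.01 that of Lif was -0.97. Tslp was 1.92-fold and 1.66-fold higher in CTFs-like cells, under the limit, and was called in the wild-type library under 5 of the alternative settings. Csf1 lay within 1.02-fold and 1.40-fold. The median log2 ratio of the 10 genes was -0.40 in the wild-type library, beside -0.10 over all genes compared, and -0.19 beside 0.18 in the reporter library. The reporter ratio of Il6 depended on the CBFs2-like cells. Against CBFs1-like cells alone it turned round, with means of 0.123 and 0.114, and the call was also lost with 15 principal components (log2 ratio -0.67) and with the genes kept in the clustering (-0.65). The reporter CTFs-like class held 739 and 757 cells under these clustering settings, in place of 520. The wild-type log2 ratio of Il6 stayed between -4.74 and -2.80 over the alternatives. Over the alternatives the reporter log2 ratios of Il33 ran from -7.22 to -3.63 and those of Il34 from 2.26 to 4.29.

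The second comparison, of CBFs2-like with CBFs1-like cells, called 3 genes higher in the wild-type library (8.61% of 12387 genes compared): Il33 by 9.11-fold, Il6 by 3.76-fold and Il11 by 2.19-fold. The Il11 call rests on 44 and 45 corrected counts and was lost under 4 alternatives, down to a log2 ratio of 0.88. Tnfsf13b (8.37-fold) and Il34 (5.36-fold) were called lower (5.93% of genes). Among reporter cells Il33 (7.54-fold) and Il6 (8.83-fold) were called higher (8.09% of 10711 genes compared), and Tnfsf13b (9.41-fold), Il34 (4.87-fold) and Il18 (3.15-fold, from 8 and 30 corrected counts) lower (10.1% of genes). Il15 fell short of the limit in both libraries, at 1.82-fold and 1.84-fold lower, and Csf1 was 1.95-fold and 1.31-fold lower. The reporter call of Il34 was lost at the higher clustering resolution (log2 ratio -0.79).

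**Figure D5:**
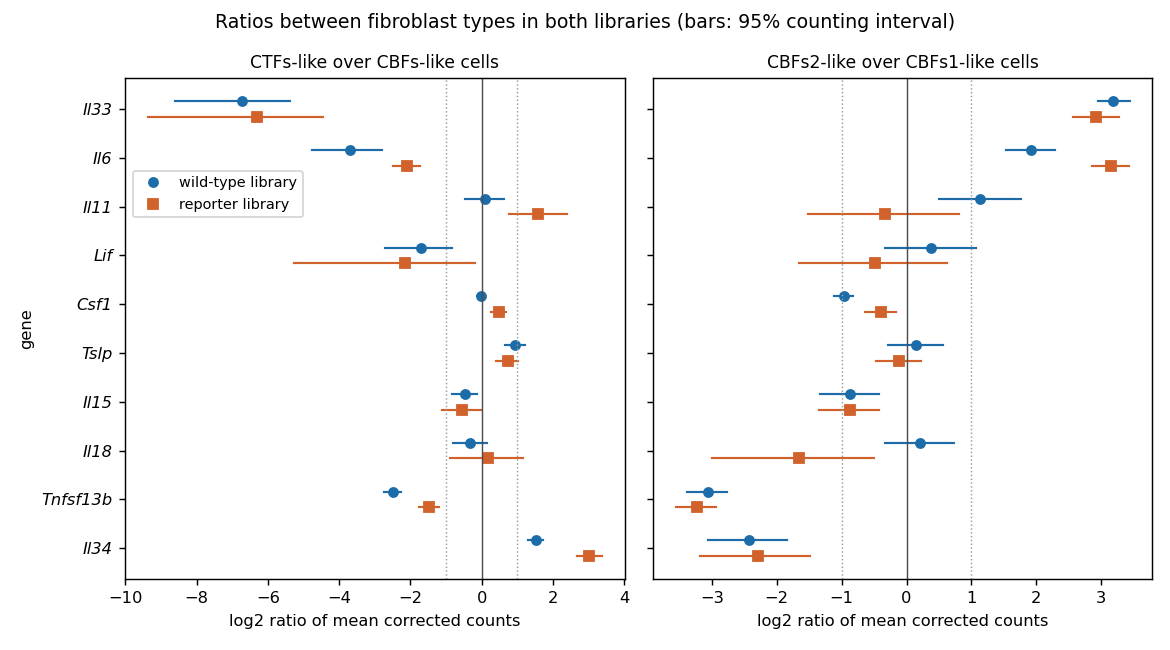
Log2 ratio of mean corrected counts of CTFs-like over CBFs-like cells (left) and of CBFs2-like over CBFs1-like cells (right) for the 10 genes, with circles for the wild-type and squares for the reporter library. Bars are 95% counting intervals and dotted lines mark 2-fold. Il33, Il6, Il15, Tnfsf13b and Il34 each lie on the same side in both libraries within each panel. Il11, Lif, Tslp and Il18 lie on opposite sides of 0 in the right panel, and Csf1 and Il18 do so in the left panel.

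Between the epithelium and the CTFs-like and CBFs-like fibroblasts of the wild-type library, 7 of the 10 genes were called lower in the epithelium (19.2% of 15329 genes compared) and 1 higher (38.8% of genes). Csf1 was 67.8-fold lower, Tnfsf13b 29.7-fold, Il6 19.4-fold, Tslp 7.43-fold, Il33 6.92-fold, Il34 4.49-fold and Il11 3.42-fold lower, and Il18 was 25.3-fold higher. Il15 (1.21-fold lower) and Lif were not called. Without the 3043 cells above 10% mitochondrial counts the log2 ratio of Il18 was 3.64 in place of 4.66, that of Il34 -3.17 in place of -2.17 and that of Il15 -0.89 in place of -0.28. Among the 24 other cytokine genes of the table, 17 entered the comparison, 9 were called lower and 5 higher in the epithelium. Those higher included Il1rn, the gene of the IL-1 receptor antagonist (means 1.22 and 0.0142), and Tnfsf15 (0.167 and 0.00488), and those lower included Tnfsf12 (0.0194 and 0.986). Of the 20 receptor genes 11 entered it, 6 were called lower in the epithelium, with Il6st, Il11ra1, Lifr and Crlf2 among them, and 2 higher, Sdc1 and Il2rg.

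Between activated fibroblast-like and CBFs1-like cells 1 of the 10 genes, Il6, was called higher (4.1% of 10859 genes compared) by 10.4-fold. None was called lower (5.4% of genes), and the log2 ratios of the other 9 genes lay between -0.61 and 0.58. In inflammatory fibroblast-like cells Il6 was 14.1-fold and Il34 2.20-fold higher (17.9% of 11026 genes compared), and again none was called lower (0.508% of genes). The median log2 ratio over all genes was 0.49 in that comparison. The log2 ratio of Il6 stayed between 3.54 and 4.27 over the alternatives, while the Il34 call was lost under 4 of them, down to 0.85, and rose to 2.55 at the higher resolution. Csf1, at 1.49-fold, and Il15, at 1.29-fold higher in inflammatory fibroblast-like cells, did not reach the limit. Tnfsf13b differed from CBFs1-like cells by 1.13-fold in activated and 1.06-fold in inflammatory fibroblast-like cells. These comparisons share the CBFs1-like cells. Both classes were named from markers of activation and inflammation that did not include the 10 genes, and the response genes named above were kept out of the clustering although other genes of the same response led it. None of the 9 other cytokine genes compared was called in activated fibroblast-like cells.

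Some other cytokine genes also differed between fibroblast types. Gdnf, a neurotrophic factor, had wild-type means of 0.259 (CTFs-like) and 0.0176 (CBFs-like), with reporter means of 0.133 and 0.00268. Of the 15 that entered the wild-type comparison of CTFs-like with CBFs-like cells 2 were called higher (6.37% of all genes compared) and 4 lower (11.7%). Of the 11 in the reporter library 2 were called higher (10% of all genes compared) and 3 lower (10.3%).

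Most fibroblasts carried at least 1 of the 10 genes. The share was 96.0% of CBFs1-like, 88.8% of CBFs2-like and 79.5% of CTFs-like cells of the wild-type library. Of the epithelial cells 59.0% carried one, with 89.7% of enterocyte-like cells, 82.8% of those led by Krt36 and Fut9 and 33.5% of goblet-like cells. A wild-type CBFs1-like cell held 2.19 of the genes on average and at most 6. Of the reporter classes inflammatory fibroblast-like cells held the most, 2.10 on average, and CBFs2-like cells 1.16. These were also the reporter classes with the most and the fewest genes above 0 of any kind, with medians of 1865 and 1173 per cell. The part of this difference in the numbers of members was not tested.

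Some genes outside the group had class means of similar shape. Over the 14 named wild-type classes, which come from 1 library and share its depth, log2 means of Csf1 were most like those of Fkbp7 (Pearson r 0.97), Synm (0.97) and Calu (0.96). Those of Il18 were most like Foxn1 (0.97), Rdh16 (0.96) and Lamb3 (0.96), and those of Tnfsf13b most like Ano5 (0.93), Wnt2b (0.92) and Tspan11 (0.92). Il6 was nearest to Myd88 (0.91), Galnt16 (0.90) and Cxcl1 (0.89), and Il33 to Flrt2 (0.86), Lbp (0.83) and Rab11fip5 (0.82). Il34 was nearest to Daam2 (0.86), Tslp to A4galt (0.86), Il11 to Mturn (0.92) and Il15 to Gpx1 (0.79).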

How the data were processed

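Deposited tables of 2 single-cell libraries of mouse colon were used. The authors used Cell Ranger on mm10, then Seurat 3.1 (R 3.6.2) for filters and SCTransform. The deposited scores are whole-number corrected counts, and the deposited natural log values are ln(1 + corrected count), as read from the values. The depth sequenced cannot be recovered, and a value above 0 need not match a molecule.

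Cells were clustered from the log values in Seurat 5.3.0 (R 4.3.3) with 3000 variable features before the 10 genes and 3 gene lists were removed, 30 principal components and resolutions of 0.45 and 0.3. Clusters were named from 19 marker lists by a rule revised once after the clusters were seen. Python 3.11.15, numpy 2.4.6 and scipy 1.17.1 gave class means, exact (Clopper-Pearson) intervals and ratios. A class sum of 0 was set to 3 counts. Shares at 0 allow up to 3 cells. The ratios were tested on simulated data. The genes, lists and comparisons were chosen with earlier results of these data known. The 10 genes were named throughout, list genes by highest class mean (at most 4 a list and comparison), and like genes by the 3 highest correlations among genes with a class mean of at least 0.1. Il1rl1, Il11ra1 and other receptors named by class, and the motifs, were chosen after values were seen. Positions come from GENCODE M21, matched by symbol for 97.7% and 97.6% of genes. Scrublet called 7 and 5 cells as doublets, too few to be of use, and all cells were kept. The libraries share 1 cell barcode. Alternatives changed clustering, cells, scaling, thinning and thresholds.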

Additional observations from a re-analysis of the deposited data

Results flagged for a closer look

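The log2 ratios of Il11 and Il18 between CBFs2-like and CBFs1-like cells had opposite signs in the 2 libraries, and the difference was not tested. Those of Lif and Tslp also differed in sign, and were within 2-fold in both libraries. The log2 ratio of Il11 was 1.13 among wild-type and -0.33 among reporter cells, from 44 and 45 corrected counts in the former and 12 and 18 in the latter. The log2 ratio of Il18 was 0.21 among wild-type and -1.65 among reporter cells, where it rests on 8 and 30 corrected counts. Intervals were 0.50 to 1.76 and -1.52 to 0.80 for Il11, which overlap, and -0.33 to 0.73 and -2.99 to -0.50 for Il18, which do not. The reporter interval of Il11 and the wild-type interval of Il18 spanned both signs, so no direction is shown there. These counting intervals leave out the spread between cells.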

How the results depend on the processing

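Of the counts of called genes under alternative settings 167 stayed within 1.5 times and 13 did not. The count called higher in CTFs-like cells of the wild-type library became 2, with Tslp beside Il34, at the raised resolution, without cells over 10% mitochondrial counts, with class sums scaled to their total, with thinned cells and at 1.5-fold. The count called lower in CBFs2-like than CBFs1-like wild-type cells became 4, with Csf1 and Il15 added, with thinned cells and at 1.5-fold. In activated fibroblast-like cells 1 gene, Il33, was called lower at 1.5-fold. In inflammatory fibroblast-like cells 1 gene, Il6, in place of 2 was called higher with 15 principal components, with the genes kept in the clustering, without Scrublet doublets and with scaled class sums, and 1 gene, Lif, was called lower with thinned cells. Reporter CTFs-like cells numbered 739 with 15 principal components, 757 with the genes kept and 636 without Scrublet doublets, in place of 520. Inflammatory fibroblast-like cells numbered 561, 542 and 640 in the same order, in place of 759. A single called ratio reversed, Il6 in CTFs-like over CBFs1-like reporter cells alone (log2 0.11). The cause of these changes was not tested, apart from the lower limit at 1.5-fold. The share of all genes called under each alternative setting is not given here. More genes of any kind pass a limit of 1.5-fold than of 2-fold. Of the other ratios 634 stayed within their counting interval and 55 moved. The direction also varied for Il11 and Csf1 (wild-type CTFs-like over CBFs-like cells), Il18 (the same among reporter cells), Tslp (CBFs2-like over CBFs1-like cells), Lif (epithelium) and genes within 2-fold in activated and inflammatory fibroblast-like cells. Without the highest 5% of doublet scores Il11 was no longer called between wild-type CBFs2-like and CBFs1-like cells. That setting, a wider CBFs-like class that also held activated and inflammatory cells, and all alternatives for activated and inflammatory cells were added after seeing the data. At the raised resolution 326 wild-type cells took the name inflammatory fibroblast-like. No reporter cell exceeded 10% mitochondrial counts. No paired analysis was possible because each group is 1 library. Il11 and Lif had the fewest cells above 0 in the reporter library.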

Other observations

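Pairs of these genes, chosen after their values were seen, were followed within single cells. Il34 was above 0 in 43.9% of the 157 wild-type CTFs-like cells with Tslp (36.0% to 52.1%) and in 28.5% of the 659 without it (25.1% to 32.1%), and in the reporter library in 41.3% of 104 (31.8% to 51.4%) and 27.4% of 416 cells (23.2% to 32.0%). The wild-type intervals stood apart and the reporter intervals overlapped. Csf1 was above 0 in 78.2% of the 774 wild-type CBFs1-like cells with Tnfsf13b (75.1% to 81.0%) and 71.1% of the 363 without it (66.1% to 75.7%), with overlapping intervals, and the reporter shares, 31.8% of 582 (28.0% to 35.7%) and 26.7% of 434 (22.6% to 31.2%), overlapped too. For Il6 and Il33 in wild-type CBFs2-like cells the shares were 14.5% of 289 cells (10.7% to 19.1%) and 13.7% of 219 (9.44% to 19.0%), and among reporter cells 35.4% of 280 and 28.6% of 573, and in both libraries the intervals overlapped. Cells of 1 class are not replicates, and differences in depth between the cells compared were not tested.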
